A study of Mus musculus with 91 samples.

Results

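The interferon regulatory factors (IRFs) are described here from 8 family genes, Irf1, Irf2, Irf3, Irf4, Irf5, Irf7, Irf8 and Irf9, taken by name from a table of 23956 gene symbols measured in 91 single cells. All 8 were present in the table, and 7 of them were above 0 in at least 1 cell. The cells were mouse bone marrow progenitors of strain C57BL/6 and genotype Gfi1-R412X/- Irf8+/-, so Gfi1 was present only as its R412X allele and Irf8 only as a single intact copy. The sort kept CD34-positive, CD16/32-high cells that carried CD117 but neither lineage markers nor Sca-1, the gate of granulocyte-monocyte progenitors (GMP). A group of 46 cells was labelled GMP and another of 45 cells CD11b+ GMP-P, CD11b being the integrin subunit encoded by Itgam. The labels name no animal, and the sources used here do not say how many mice were used or how old they were. Each population therefore counts as 1 sample, and nothing was tested between populations or over cells. Both populations carry the same alleles, so the effect of either allele on the Irf genes cannot be read from these cells.

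IRFs share an N-terminal DNA-binding domain with conserved tryptophans that recognises repeats of GAAA, the core of interferon-stimulated response elements. IRF3 and IRF7 are switched on by phosphorylation after nucleic acid sensing and drive interferon genes, IRF9 is part of the complex that answers type I interferon, and IRF1 and IRF2 compete for related sites. IRF8 and its closest relative IRF4 bind DNA weakly on their own and act with partners such as PU.1, and IRF8 steers myeloid progenitors toward monocytes and dendritic cells and away from neutrophils.

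Promoters of 3 members are shown because they hold the letters through which interferon signalling is known to reach Irf genes. All 8 members were matched by symbol to RefSeq start sites of build GRCm38.p6, with 11 windows of 250 bases before a start. Motifs searched on both strands were GAS, the gamma-activated site (TTCNNNGAA), the ISRE core (GAAA, any 2 bases, GAAA) and EICE, the composite site of PU.1 and IRF4 or IRF8 (GGAA, any 2 bases, GAAA). Capitals mark the matches, which are descriptions of letters and not of binding. The windows lie at chr8:120736108-120736357 for Irf8, chr11:53769764-53770013 for Irf1 and chr8:46739495-46739744 for Irf2, all on the plus strand and written 5′ to 3′.
Irf8: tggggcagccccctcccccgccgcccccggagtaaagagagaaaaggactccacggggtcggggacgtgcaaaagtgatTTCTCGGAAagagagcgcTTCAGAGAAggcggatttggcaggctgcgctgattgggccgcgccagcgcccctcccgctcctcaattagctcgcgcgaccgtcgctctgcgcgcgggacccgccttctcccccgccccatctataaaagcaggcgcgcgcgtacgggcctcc
Irf1: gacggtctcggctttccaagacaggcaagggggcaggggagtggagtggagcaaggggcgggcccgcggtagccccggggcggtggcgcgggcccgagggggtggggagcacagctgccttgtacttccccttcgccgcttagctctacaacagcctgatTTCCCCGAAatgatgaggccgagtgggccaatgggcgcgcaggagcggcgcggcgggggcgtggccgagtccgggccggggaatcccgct
Irf2: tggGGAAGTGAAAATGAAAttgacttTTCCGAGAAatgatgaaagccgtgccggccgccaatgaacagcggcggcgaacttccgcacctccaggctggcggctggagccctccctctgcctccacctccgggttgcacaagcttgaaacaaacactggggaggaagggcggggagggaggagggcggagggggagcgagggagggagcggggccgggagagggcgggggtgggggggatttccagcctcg
The Irf8 window held GAS letters at 171 to 163 and at 153 to 145 bases before the start. In Irf1 a GAS match lay at 90 to 82 bases before the start. Irf2 held a GAS match at 224 to 216 and an EICE match at 247 to 238 that overlaps an ISRE core match at 241 to 232. Among 32851 windows of the same length, 7.02% held GAS, 2.98% the ISRE core and 2.30% EICE. The other 8 member windows, including a second window of Irf8 and of Irf1, held none of these letters.

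All levels below are log2(TPM + 1), where TPM is the deposited transcript abundance scaled to the same total in every cell, a unit corrected for transcript length, so levels of different genes can be set side by side. TPM keeps no read depth, so precision is described by the genes above 0 in each cell, which averaged 5294 ± 801 in GMP (SD, n = 46 cells) and 4112 ± 953 in CD11b+ GMP-P (n = 45 cells). Of the genes of the sort gate, Ly6a, which encodes the Sca-1 that the sort selected against, was above 0 in 43 GMP and 44 CD11b+ GMP-P cells. Kit, the gene of CD117, was above 0 in 37 and 21 cells, Cd34 in 42 and 32, Fcgr3 in 46 and 42, and Itgam in 13 and 34. Among markers of other cell types, Cd79a, Pax5, Ebf1, Ms4a1, Cd3e, C1qa, C1qb, Klf1, Cd74 and H2-Aa were listed at 0 in all cells. Other genes of the same marker lists were present: Nkg7 of the T and NK cell list in 46 GMP and 43 CD11b+ GMP-P cells, Cd79b of the B cell list in 29 and 15, Slc40a1 and Vcam1 of the macrophage list in 17 and 30 and in 10 and 19, and H2-Ab1 of the dendritic cell list in 16 and 6. Cd3d was above 0 in 0 and 6 cells, Gata1 in 0 and 2, Hba-a1 in 1 and 0, and Itga2b in 3 and 1. Of the basophil, mast cell and eosinophil list, Hdc was above 0 in 43 and 38 cells and Mcpt8 in 21 and 6. Gata2 was above 0 in 21 and 7, and Cpa3 in 12 and 3. Prg2 was above 0 in 9 and 9 cells, and Epx in 4 and 4. Mean levels of Prg2 and Epx differed by 0.37 and 0.25, CD11b+ GMP-P minus GMP. Those of Hdc, Mcpt8, Gata2 and Cpa3 differed by -2.64, -2.22, -1.76 and -0.86. The median over cells of the summed TPM of that list was 462 for GMP and 11.6 for CD11b+ GMP-P. The highest sum in any cell was 23695 for GMP and 131255 for CD11b+ GMP-P. The part of these marker genes in the Irf values was not tested. Summed TPM of 10 neutrophil genes had medians of 54665 (GMP) and 321243 (CD11b+ GMP-P). These genes did not move together. In mean level Elane, Mpo, Prtn3 and Ctsg differed by -3.06, -4.40, -2.42 and -5.11, CD11b+ GMP-P minus GMP. Camp, Ngp, Ltf, Lcn2, S100a8 and S100a9 were higher in CD11b+ GMP-P, by 5.27 to 8.42. Since TPM is shared out within a cell, the part of the gap in summed TPM in lower values of other genes was not tested.

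Irf8 was the most abundant family member in both populations. Its level in GMP ranged from 0 to 9.90 with a median of 7.87, and in CD11b+ GMP-P from 0 to 9.58 with a median of 0.39. The ranges overlapped from end to end, but the cells were distributed differently. In GMP 30 of 46 cells held Irf8 at 100 TPM or more, 7 lay between 1 and 100 TPM, 4 were above 0 but under 1 TPM and 5 were at 0. In CD11b+ GMP-P 17 of 45 cells reached 100 TPM, 2 lay between 1 and 100 TPM, 11 were above 0 but under 1 TPM and 15 were at 0. CD11b+ GMP-P cells thus fell into a high and a near-zero set with few cells between, whereas GMP cells included a tail of intermediate levels.

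Among cells that held Irf8 at 10 TPM or more the level was much the same in both populations. It averaged 8.04 ± 1.47 in 35 GMP cells (median 8.47) and 8.39 ± 0.80 in 18 CD11b+ GMP-P cells (median 8.48), a gap smaller than either SD. Cells at 10 TPM or more made up 76.1% of GMP (61.2 to 87.4, the 95% Clopper-Pearson interval) and 40% of CD11b+ GMP-P (25.7 to 55.7). These intervals, like the others here, cover counting error only. Over all cells the mean difference was -2.79. As a log2 ratio of mean TPM it was -0.88, and it was, for the 26 GMP and 21 CD11b+ GMP-P cells that had from 3947 to 5645 genes above 0 (the shared range), -0.93, both short of the size of 1 used here to call a difference. Cells with little Irf8 also had fewer genes: in CD11b+ GMP-P the median number of genes was 4754 at 100 TPM or more of Irf8, 3296 above 0 but under 1 TPM, and 3889 at 0. The part of detection in the Irf8 pattern was not tested.

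The Irf8 values above 0 but under 1 TPM in CD11b+ GMP-P lay mostly in cells with little Elane, the neutrophil elastase gene. Of these 11 cells 8 had Elane under 10 on the log2 scale, against 5 of the 15 cells at 0 and 2 of the 17 cells at 100 TPM or more. In the 29 CD11b+ GMP-P cells with Elane at 10 or more, Irf8 averaged 4.58 ± 4.32, and in the other 16 it averaged 1.51 ± 2.79, with nearly equal shares above 0 of 65.5% (45.7 to 82.1) and 68.8% (41.3 to 89). Counting any value above 0 thus hid the lower Irf8 level of the cells with little Elane, which had a median of 3172.5 genes against 4586.

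**Figure D1:**
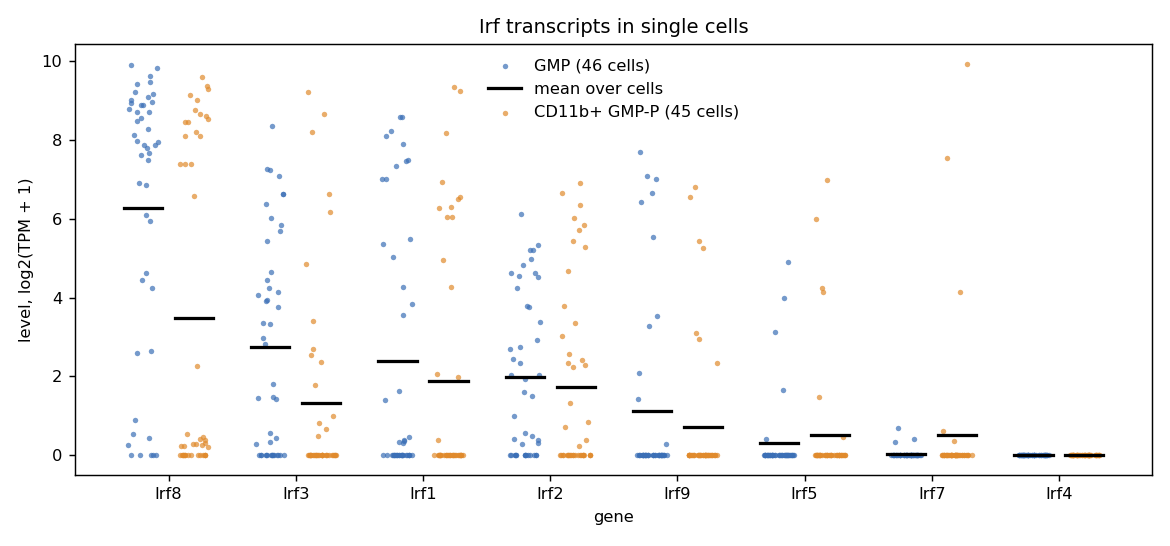
Level of each Irf member, as log2(TPM + 1) on the y axis, in GMP (blue, 46 cells) and CD11b+ GMP-P (orange, 45 cells), where a point is a cell, a black bar is the mean and horizontal position within a gene has no meaning. Irf8 shows a high set of cells in both populations, Irf4 is at 0 in all 91 cells, and single cells carry the highest Irf7 values.

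Behind Irf8 the members followed as Irf3, Irf1, Irf2, Irf9, Irf5, Irf7 and Irf4 in GMP, by mean level. Irf3 averaged 2.74 ± 2.70, Irf1 2.39 ± 3.26, Irf2 1.98 ± 2.02, Irf9 1.11 ± 2.35, Irf5 0.31 ± 1.03 and Irf7 0.03 ± 0.13. In CD11b+ GMP-P the order was Irf8 at 3.48 ± 4.09, Irf1 at 1.89 ± 3.07, Irf2 at 1.74 ± 2.35, Irf3 at 1.32 ± 2.57, Irf9 at 0.72 ± 1.83, Irf5 at 0.52 ± 1.58 and Irf7 at 0.50 ± 1.92. Past the step from Irf8 to the second member in GMP, each pair of neighbours in these orders differed by less than the SD over cells of at least 1 of the pair. Irf8 alone made up 71.6% of the summed TPM of the family for GMP and 53.2% for CD11b+ GMP-P, and was the highest member in 31 of 46 and 19 of 45 cells.

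Against GMP, 2 of the 7 measured members, Irf8 and Irf3, were lower in CD11b+ GMP-P by 1 or more, and none was higher. Measured genes were those with a value above 0 in 10% or more of GMP or of CD11b+ GMP-P cells. Of all 10030 measured genes 29.9% were lower by 1 or more and 2.45% higher, so a count of 2 in 7 is near that background. The members' median difference was -0.39, against -0.50 for all measured genes. Relative to the latter, Irf8 lay 2.29 lower and Irf3 0.91 lower, whereas Irf5 lay 0.71 and Irf7 0.97 higher. With the log2 ratio of mean TPM 1 member, Irf9 at -1.11, was lower and Irf5 at 1.47 and Irf7 were higher, where the backgrounds were 30.9% and 10.3%. Without its highest CD11b+ GMP-P cell, a setting chosen after seeing the data, the Irf5 value was 0.59 and no longer past 1.

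Irf3, the constitutively made factor that nucleic acid sensors activate, was found in fewer CD11b+ GMP-P cells. In GMP it ranged from 0 to 8.36 with a median of 2.31, and in CD11b+ GMP-P from 0 to 9.21 with a median of 0. GMP had it in 31 of 46 cells (67.4%, 52 to 80.5) and CD11b+ GMP-P in 15 of 45 (33.3%, 20 to 49). Its share above 0 thus changed by -34.1 percentage points. The change was -22.5 for Irf8, -18.5 for Irf2, -16.7 for Irf1, -8.36 for Irf9, 2.46 for Irf5 and 4.59 for Irf7. CD11b+ GMP-P cells also had fewer genes above 0, and the part of this in the Irf3 shares was not tested. The mean difference was -1.42. Where Irf3 reached 10 TPM its level was higher in CD11b+ GMP-P, at 7.28 ± 1.67 in 6 cells against 5.56 ± 1.41 in 19 GMP cells, and the 3 highest CD11b+ GMP-P cells held 85% of that population's Irf3 TPM. The direction accordingly turned for the log2 ratio of mean TPM, at 0.11. Restricted to the shared range, it was -1.51.

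Irf1 and Irf2, the activator and the factor known mainly to antagonise it, differed little between the populations. Irf1 had a median of 0.16 and a maximum of 8.58 in GMP, and a median of 0 and a maximum of 9.34 in CD11b+ GMP-P, with 23 and 15 cells above 0. Its difference of -0.50 equalled the median of all measured genes. Irf1 tended to be absent or strong: 16 of its 23 positive GMP cells and 12 of its 15 positive CD11b+ GMP-P cells reached 10 TPM, at 6.58 ± 1.72 and 6.72 ± 1.53. Irf2 was broader and weaker, above 0 in 31 GMP cells (67.4%) and 22 CD11b+ GMP-P cells (48.9%), with only 13 and 10 of them at 10 TPM or more. Its maxima were 6.11 and 6.91. The Irf2 difference of -0.23 turned to 0.14 under median-of-ratios scaling and to 0.53 in the shared range, so no direction is given for it, and that of Irf1 turned to 0.04 in that range.

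Irf9, the DNA-binding subunit of the type I interferon response complex, was found in 11 GMP cells, or 23.9% (12.6 to 38.8), and in 7 CD11b+ GMP-P cells, or 15.6% (6.49 to 29.5), with maxima of 7.69 and 6.79. The difference of -0.39 was smaller than the SD over cells in either population. Its partner gene Stat2 was above 0 in 14 GMP and 12 CD11b+ GMP-P cells. Irf5, which acts downstream of Toll-like receptors and MyD88, was above 0 in 5 GMP and 6 CD11b+ GMP-P cells, with maxima of 4.89 and 6.98. These counts differ by 1 cell.

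Irf7, the interferon-inducible factor that amplifies type I interferon production, was near zero in GMP and strong in single CD11b+ GMP-P cells. The 3 GMP cells above 0 stayed under 1 TPM, at most 0.60 TPM, and 5 CD11b+ GMP-P cells were above 0, of which 3 reached 10 TPM. Those 3 cells held 978, 184 and 16.7 TPM. The cell at 978 TPM carried 82.9% of the population's Irf7 and had 2435 genes above 0, the fewest of any CD11b+ GMP-P cell. Of 40 interferon-stimulated genes it held 3 above 0, against a median of 5 in CD11b+ GMP-P, but their summed TPM was 1379, against a median of 215. Stat2, Irf9 and Irf1 were at 0 in it, as were the plasmacytoid dendritic cell markers Siglech, Spib, Ccr9 and Bst2. Tcf4, another of these markers, stood at 0.08 and Irf8 at 7.39. The cell at 184 TPM held 10 interferon-stimulated genes above 0 with a summed TPM of 198, so the order of these cells by count is the opposite of that by level. The cell at 184 TPM had Stat2 at 6.36, Irf1 at 6.05, Tcf4 at 2.03 and Irf8 at 0.29.

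Irf4, the lymphoid relative of Irf8, was listed at 0 in all 46 GMP and 45 CD11b+ GMP-P cells, which allows shares of cells with a value of up to 6.52% and 6.67%, taking 3 cells of the total as the limit for a count of 0 in place of a Clopper-Pearson bound.

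**Figure D2:**
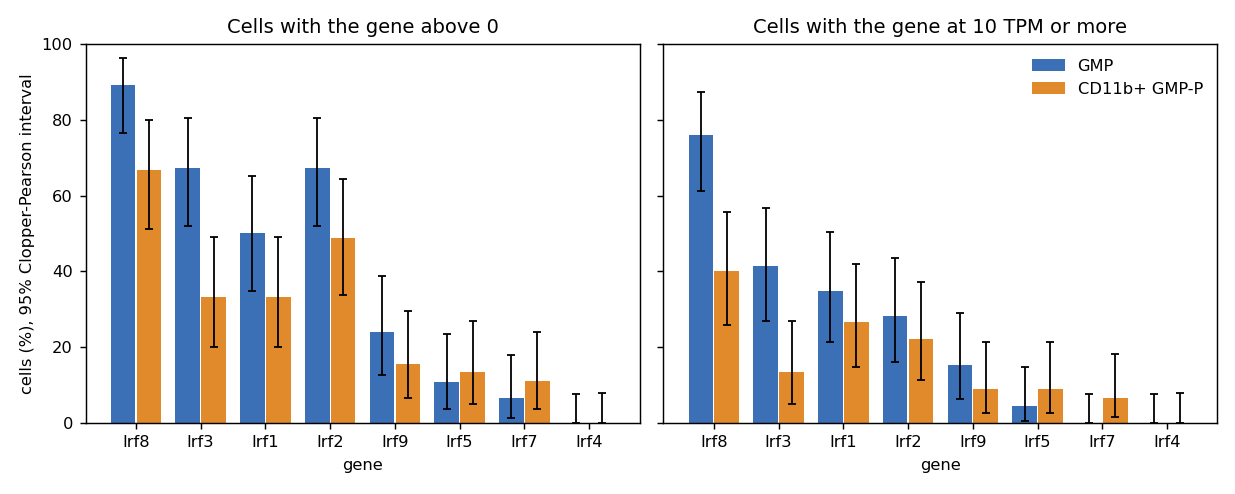
Share of cells with each Irf member above 0 (left) and at 10 TPM or more (right), in percent on the y axis, with GMP (46 cells) in blue, CD11b+ GMP-P (45 cells) in orange and bars for 95% Clopper-Pearson intervals. Irf8 at 10 TPM or more was found in 76.1% of GMP and 40% of CD11b+ GMP-P cells, and the Irf3 shares above 0 were 67.4% and 33.3%.

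Most cells held several family members. GMP cells held 3.15 ± 1.05 members above 0 (SD over 46 cells, range 1 to 6) and CD11b+ GMP-P cells 2.22 ± 1.44 (45 cells, 0 to 6). No GMP cell and 5 CD11b+ GMP-P cells lacked all 8. At 10 TPM or more the means were 2 ± 1.10 and 1.27 ± 1.12, with 3 and 15 cells lacking every member. The number of members was higher in cells with more genes detected, with Spearman correlations over cells of 0.40 in GMP and 0.43 in CD11b+ GMP-P, values that share the same libraries and the same detection. The most frequent set in GMP was Irf1, Irf2, Irf3 and Irf8 together, in 7 cells. In CD11b+ GMP-P the most frequent sets, apart from no member, were Irf8 alone, Irf2 alone, and Irf2 with Irf8, in 4 cells each.

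**Figure D3:**
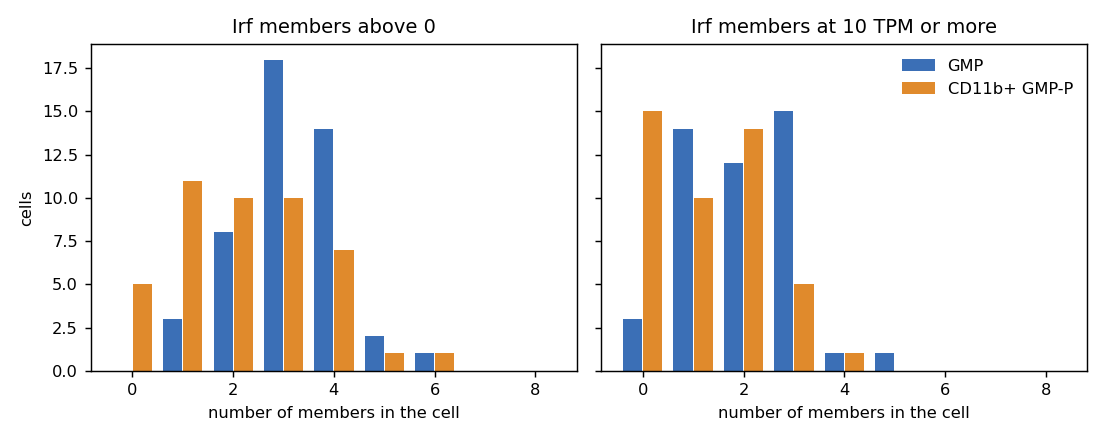
Number of Irf members in a cell (x axis) against the number of cells (y axis), with members above 0 on the left and at 10 TPM or more on the right, for GMP (blue) and CD11b+ GMP-P (orange). Counts centre on 3 in GMP above 0, and 15 CD11b+ GMP-P cells hold no member at 10 TPM.

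In GMP, Irf8 was found with the other members about as often as the separate shares give. Irf8 was above 0 in 41 of the 46 cells, so the joint counts had little room to differ from this. Their closeness therefore does not show that the genes were detected independently. Irf8 and Irf3 were found together in 28 of 46 cells (27.6 from the product of their shares), Irf8 and Irf2 in 27 (27.6), Irf8 and Irf1 in 21 (20.5), Irf8 and Irf9 in 9 (9.80), and Irf8 and Irf5 in 4 (4.46). Of the 41 cells with Irf8, 39 held another member, as did all 5 cells without it. Only 5 GMP cells lacked Irf8, so shares among them are loose, for example 60% for Irf3 (14.7 to 94.7) against 68.3% (51.9 to 81.9) with Irf8. Elane was under 10 on the log2 scale in 2 of these 5 cells. Of 5 other members above 0 in at least 10% of GMP cells, 2 had a higher share where Irf8 was present and 3 a lower one, while 65.3% of 9765 genes had a higher share and 29.2% a lower one. At floors of 1 and 10 TPM 2 of 4 members were higher, against 73.2% and 72.7% of genes. At 10 TPM or more Irf9 was the least joined to Irf8, with 4 cells holding both against 5.3 from the product of shares, and over all GMP cells its Spearman correlation with Irf8 was -0.32.

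In CD11b+ GMP-P most other members were above 0 in a larger share of the cells with Irf8. Irf3 was above 0 in 13 of the 30 cells with Irf8 (43.3%, 25.5 to 62.6) and in 2 of the 15 without it (13.3%, 1.66 to 40.5). Irf1 was found in 12 of 30 (40%, 22.7 to 59.4) and 3 of 15 (20%, 4.33 to 48.1), Irf2 in 16 and 6, and Irf9 in 6 and 1. All 6 cells with Irf5 held Irf8, against 4 from the product of shares, and so did all 4 cells with Irf5 at 10 TPM or more. Irf7 went the other way, in 2 of the 30 cells with Irf8 and 3 of the 15 without. All these pairs of intervals overlap. Thus 5 of 6 measured members had a higher share where Irf8 was present and 1 a lower one, where 52.5% of 8845 genes were higher and 36.2% lower. The excess depended on the floor. At 1 TPM 5 of 5 members found in 10% or more of cells were higher, against 75.3% of 7693 genes, and at 10 TPM 2 of 3 were, against 71% of 6071 genes, where the members' share was not above that of all genes. Irf2 turned at 10 TPM, to 3 of 18 cells with Irf8 and 7 of 27 without. Cells with Irf8 above 0 had a median of 4357 genes, against 3889 in the others, and the part of this gap in the co-detection was not tested.

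The Spearman correlation of Irf5 with Irf8 over the 45 cells was 0.48, and 0.43 after removal of the rank of genes detected, and it rests on 6 cells with Irf5. In GMP the same correlation was 0.13. For Irf3 it was 0.36 in CD11b+ GMP-P and -0.09 in GMP. Each of these is a description of 1 sample.

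**Figure D4:**
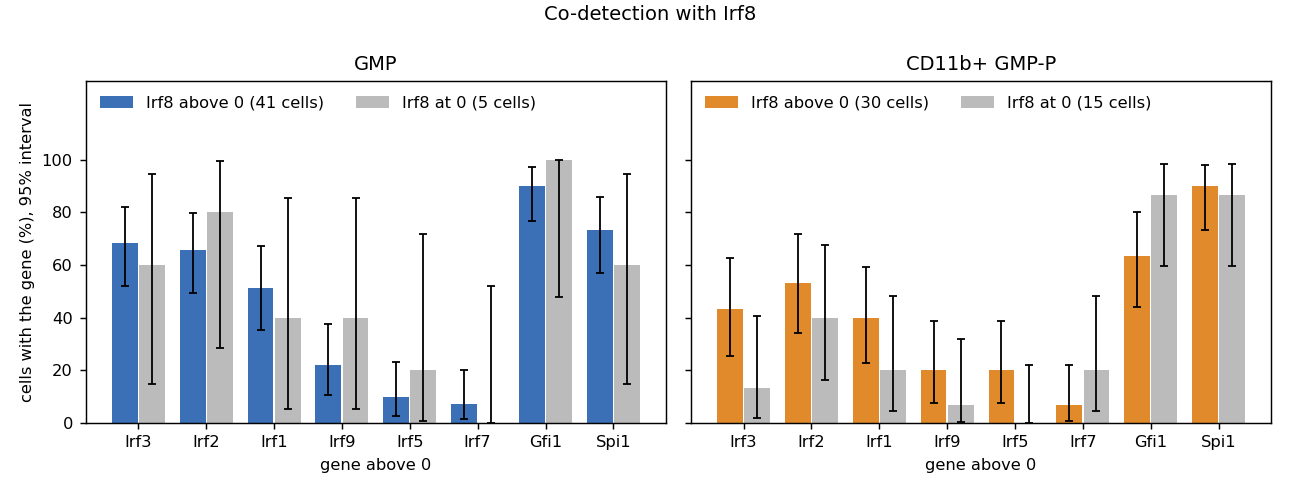
Share of cells with each gene above 0, in percent on the y axis, among cells with Irf8 above 0 (coloured) and at 0 (gray), in GMP (left) and CD11b+ GMP-P (right), with bars for 95% Clopper-Pearson intervals. In CD11b+ GMP-P, Irf3 was found in 43.3% of cells with Irf8 and 13.3% without, and Gfi1 in 63.3% and 86.7%, which turned to 61.1% and 44.4% at a floor of 10 TPM.

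Pairs that do not involve Irf8 also stayed near the product of shares, with a few small exceptions picked after their values were seen. In GMP 10 of the 11 cells with Irf9 held Irf2, against 7.41 from the product, and in CD11b+ GMP-P 5 of 7 cells with Irf9 held Irf3, against 2.33. Irf1 and Irf2, which compete for sites, were found together in 15 GMP cells (15.5) and 9 CD11b+ GMP-P cells (7.33). Irf3 and Irf7 shared no CD11b+ GMP-P cell, where the product gives only 1.67, and shared 2 GMP cells (2.02).

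Irf8 was next set beside the transcripts of its partners. Spi1 encodes PU.1, with which IRF8 binds composite sites, and was above 0 with Irf8 in 30 GMP and 27 CD11b+ GMP-P cells, against 29.4 and 26.7 from the product of shares. Spi1 itself was higher in CD11b+ GMP-P by 2.14, and 27 of the 30 cells with Irf8 there also had it. At 10 TPM or more 15 of 35 GMP cells with Irf8 held Spi1 and 1 of 11 without, but in CD11b+ GMP-P it was 13 of 18 and 18 of 27. At that floor most genes had a higher share in cells with Irf8 (72.7% of genes for GMP, 71% for CD11b+ GMP-P), which makes a higher share the common case. Etv6, a repressor that can join IRF8, was at 10 TPM in 8 of 18 CD11b+ GMP-P cells with Irf8 at that level and 3 of 27 without, and in 20 of 35 and 5 of 11 GMP cells. At 1 TPM its share in GMP was lower with Irf8, at 73% against 77.8%. Csf1r, the monocyte growth factor receptor gene, was at 10 TPM in 6 of those 18 cells and 1 of the 27, and in 12 of 35 and 2 of 11 GMP cells. Cpa3, a mast cell and basophil protease gene, was at 10 TPM in 4 GMP cells, none of which held Irf8 at 10 TPM. Only 1 of these 4 cells had Elane at 10 or more on the log2 scale.

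By a ranking that needs likeness in both populations, the 3 genes most like Irf8 over cells came from the Ly6 family. The 3179 genes with a value in 50% or more of GMP and of CD11b+ GMP-P cells were ranked by the lower of their Spearman correlations with Irf8 in the 46 GMP and the 45 CD11b+ GMP-P cells. The first 5 were Ly6c2 at 0.65 and 0.64, Ly6c1 at 0.62 and 0.59, Ly6a at 0.58 and 0.56, Ms4a6c at 0.57 and 0.55, and Idh1, cytosolic isocitrate dehydrogenase, at 0.47 and 0.59. The median of the lower correlation over all ranked genes was 0.02 and the 99th percentile 0.35. Within a single population other genes led: Cfp in GMP at 0.65 (0.32 in CD11b+ GMP-P) and Rpl11 in CD11b+ GMP-P at 0.68 (0.15 in GMP). Ly6c2 encodes the monocyte and granulocyte surface antigen Ly6C. Its median was 13.04 in GMP cells with Irf8 at 10 TPM or more and 11.46 in the others, and 13.41 and 11.16 in CD11b+ GMP-P, with overlapping ranges. Ms4a6c, a membrane protein gene used as a monocyte marker, had medians of 7.31 and 3.31 in GMP and of 6.32 and 0 in CD11b+ GMP-P.

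The 3 Ly6 genes are not separate observations. Ly6a and Ly6c1 followed Ly6c2 over GMP cells with correlations of 0.93 and 0.92, at mean TPM of 87.3 and 81.2 beside 7222 for Ly6c2, and over CD11b+ GMP-P cells with 0.69 and 0.79. They are sequence relatives between which reads can be divided, and cells were sorted as lacking the Ly6a product, so their own transcripts cannot be told apart here from reads of Ly6c2. After removal of the rank of genes detected the same 5 genes led, with lower correlations from 0.41 to 0.52. In the shared range 2 of the 5 stayed among the first 5, and the monocyte gene F13a1 led at 0.70.

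**Figure D5:**
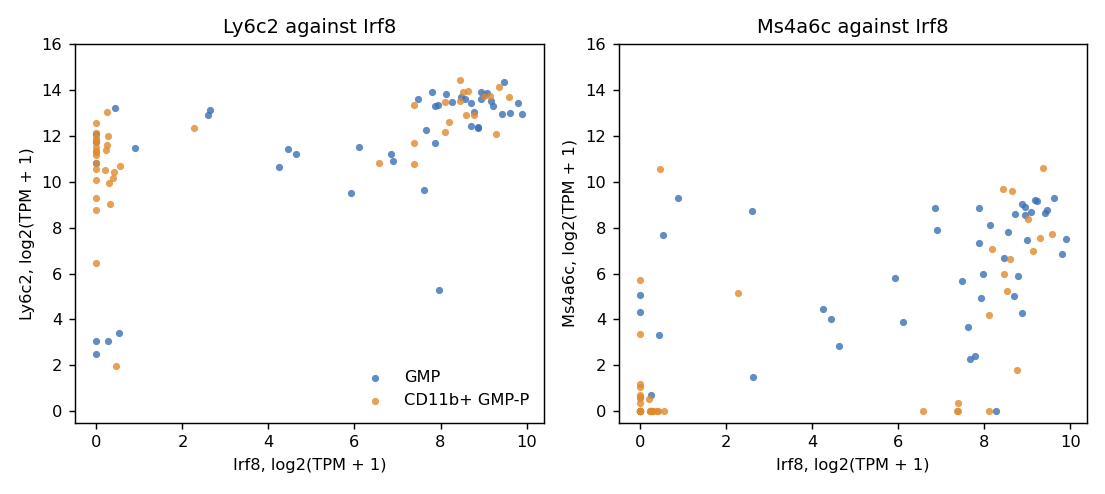
Ly6c2 (left) and Ms4a6c (right) on the y axis against Irf8 on the x axis, all as log2(TPM + 1), in GMP (blue, 46 cells) and CD11b+ GMP-P (orange, 45 cells), 1 point per cell. Spearman correlations with Irf8 were 0.65 and 0.64 for Ly6c2 and 0.57 and 0.55 for Ms4a6c, in GMP and CD11b+ GMP-P.

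Summed levels of monocyte markers differed between the populations too. The summed TPM of 7 markers (Csf1r, Ccr2, F13a1, Ly86, Ms4a6c, Klf4 and Ctss) had a median of 468 in GMP, with a range from 0 to 5575, and of 3.27 in CD11b+ GMP-P, from 0 to 2772. All 7 were measured in both populations. In mean level F13a1, Ms4a6c, Ccr2, Ctss and Ly86 differed by -3.83, -3.12, -2.93, -2.74 and -2.29, CD11b+ GMP-P minus GMP. Csf1r at -0.82 and Klf4 at -0.46 differed by less than 1. As a log2 ratio of mean TPM Csf1r was higher in CD11b+ GMP-P, at 0.52. Of all measured genes 29.9% were lower by 1 or more in mean level. Whether the Irf8 pattern reflects the mix of cells or the level within 1 kind of cell was not tested.

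The genes around the IRFs were taken as lists, beginning with the interferon ligands. All 20 interferon ligand genes on the list, among them Ifnb1, Ifng and the Ifna genes, were at 0 in each of the 91 cells, which allows a share of up to 3.30% for each by the same limit of 3 cells. Being at 0 in every cell was common, and held for 11009 of all 23956 genes. Of 24 sensors, adaptors and kinases that act upstream of IRF3, IRF5 and IRF7, 21 were measured, 8 were lower in CD11b+ GMP-P and none was higher, with a median of -0.40. All measured genes had 29.9% lower, 2.45% higher and a median of -0.50, so this list lay near them. Tmem173, which encodes the DNA-sensing adaptor STING, had a mean of 4.74 ± 3.11 against 1.64 ± 2.88, which is -3.10 apart. Tbk1, the kinase that phosphorylates IRF3, differed by -1.87, with 33 GMP and 18 CD11b+ GMP-P cells above 0. The interleukin receptor-associated kinases Irak1 and Irak4 differed by -1.57 and -1.33, or by -0.86 and -0.49 with the log2 ratio of mean TPM.

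Receptors for type I interferon and interferon gamma were found in both populations, with Ifnar1 above 0 in 46 GMP and 44 CD11b+ GMP-P cells. Of 19 genes of interferon receptors and JAK-STAT signalling, 15 were measured, 4 were lower and none higher, no larger a share than the 29.9% of all measured genes. The median of -0.33 turned to 0.14 as a log2 ratio of mean TPM and to 0.21 in the shared range. Ifngr1, the ligand-binding chain of the interferon gamma receptor, stood at 8.47 ± 2.44 and 5.85 ± 3.28, a gap of -2.62, and was above 0 in 45 and 44 cells. Ifngr2, its signalling chain, differed by -1.51, but by 0.14 as a log2 ratio of mean TPM. The phosphatase gene Ptpn2 differed by -1.72 and Pias1, an inhibitor of activated STAT, by -2.28.

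Of 20 partners and co-regulators 15 were measured, 1 was higher (Spi1) and 5 were lower, where all measured genes had 2.45% higher and 29.9% lower. The median of 0.02 turned to -0.17 as a log2 ratio of mean TPM, and no direction is given for the list. The lower ones included Cops2, a signalosome subunit, at -2.45, Etv6 with means of 3.59 and 1.59, and Batf at -1.40. Irf2bp2, which encodes an IRF2-binding co-repressor and had the highest mean of the list, stood at 3.86 ± 2.20 and 3.97 ± 2.38 and was above 0 in 42 cells of each population. It was thus found more widely than Irf2 itself.

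Interferon-stimulated genes were found in each cell about as often as genes in general. Of 40 such genes a GMP cell held 8.70 ± 2.40 above 0 (range 3 to 15) and a CD11b+ GMP-P cell 5.82 ± 2.37 (3 to 12). Of all 23956 genes the cells held 5294 ± 801 and 4112 ± 953 above 0, similar shares. Of 22 measured, 7 were lower and none higher, with a median of -0.47, near the 29.9% lower and the median of -0.50 of all measured genes. With the other pseudocounts and scalings the list median also stayed near that of all measured genes. As a log2 ratio of mean TPM it was further down, at -0.93 against -0.47 for all measured genes. In the shared range it was -0.57 against -0.20. The lower genes of the list included Ifi47 and Irgm1, GTPases induced by interferon gamma, at -3.63 and -1.33, Gbp3, another such GTPase, at -1.87, and Bst2 (tetherin) at -2.91. Gbp3 was above 0 in 17 GMP cells and 1 CD11b+ GMP-P cell.

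The MHC class I and immunoproteasome genes, a list that includes known targets of IRF1, had the largest median difference of the lists. The part of IRF1 in this was not tested. All 16 were measured, 12 were lower in CD11b+ GMP-P and none was higher, with a median of -2.16. Of the 14 found in 50% or more of GMP or of CD11b+ GMP-P cells 12 were lower, against 51.8% of all 5133 genes so detected, whose median was -1.05. The immunoproteasome subunit Psmb8 had means of 8.52 ± 1.67 and 4.87 ± 3.85, and Psmb10 5.92 ± 2.95 and 2.08 ± 3.09. The chaperone Pdia3 differed by -3.25 and the class I heavy chain H2-K1 by -4.44. B2m, the common light chain and the gene of highest mean on the list, differed by only -0.84. As log2 ratios of mean TPM the genes of the list had a median of -1.15, against -0.47 for all measured genes.

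Among 27 monocyte and dendritic cell genes linked to IRF8, 16 were measured, 5 were lower, 2 were higher and the median was -0.49. Ccr2, the receptor that guides monocytes out of the marrow, differed by -2.93 and the protease gene Ctss by -2.74. The higher genes were Id2 at 3.31 and Cybb, an oxidase subunit shared with neutrophils, at 3.54. Ly6c2 had the highest mean of the list and differed by only -0.09. The number lower and the median lie near those of all measured genes, at 29.9% and -0.50. The 2 of 16 higher are a larger share than the 2.45% of all measured genes. Among dendritic cell genes, Xcr1 was above 0 in 18 GMP and 17 CD11b+ GMP-P cells, H2-Ab1 in 16 and 6, Flt3 in 5 and 1, Siglech in 5 and 3, Zbtb46 in 1 and 1 and Clec9a in 1 and 0. These counts include values near the floor. Over all cells Xcr1 averaged only 0.24 ± 0.50 and 0.14 ± 0.22, and Siglech 0.05 ± 0.14 and 0.04 ± 0.14. H2-Ab1 averaged 1.36 ± 2.31 and 0.52 ± 1.55.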

How the data were processed

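The authors deposited 1 table of log2 values. On the linear scale, after subtraction of 1, every cell summed to nearly the same total (lowest 999999), so the values were read as log2(TPM + 1). Per the submitters' processing notes, RSEM and build mm9 were used; no aligner or annotation is named there. Libraries were made on a Fluidigm C1 chip with SMARTer and Nextera XT, per the labels' protocols, which name neither molecular identifiers nor strand, so overlapping and antisense genes may share reads. In total 80.3% of values were 0. No cell was left out and no doublet caller was run. The highest correlation between 2 cells was 0.736. Cells were grouped by their titles.

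Means, SDs over cells, shares with exact Clopper-Pearson intervals and Spearman correlations were computed in Python 3.11.15 with scipy 1.17.1, with no test, since each population is 1 sample. The calculation of differences and correlations was tested on simulated data. Members, gene lists and settings were chosen with earlier results of these data known. Genes named were the members, Gfi1, markers, the 5 genes most like Irf8, the gene most like it within each population, and from each list up to 4 genes of largest difference and the gene of highest mean. Ifnar1 and Stat2 were named in addition, outside this rule. Other settings tried were a pseudocount of 0.1 or 10, a log2 ratio of mean TPM plus 1, 2 other scalings, filters, floors of 1 and 10 TPM, cells with Elane at 10 or more, and a shared range of genes detected (5th percentile of GMP to 95th of CD11b+ GMP-P).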

Additional observations from a re-analysis of the deposited data

How the results depend on the processing

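Under other settings 182 recomputed values moved by less than the spread over cells, the counting interval or, for counts, 1.5 times, 33 moved further and 1 called value, Irf3, turned. Of 92 recomputed differences and list medians, 13 had the opposite sign, those of Irf1, Irf2, Irf3 and the lists of receptors and of partners, and all but Irf3 were under 1 in size. The number of members lower by 1 or more was 1 in place of 2 with a pseudocount of 10, in cells of the shared range, and for the log2 ratio of mean TPM, which made 2 members higher in place of 0. Irf3 turned to 0.11 with the ratio. In settings chosen after seeing the data, without the highest CD11b+ GMP-P cell of each, the ratio of Irf5 was 0.59 in place of 1.47, under 1, and that of Irf7 was 2.44 in place of 4.73. The list medians that moved were those of the sensors, the interferon-stimulated genes and the MHC class I genes. With the ratio the interferon-stimulated genes stood at -0.93 and the MHC class I genes at -1.15, against -0.47 for all measured genes. With a filter of 30% of cells the sensors stood at -1.04 and the interferon-stimulated genes at -1.12. The median of all genes under that filter was not computed, so these 2 values cannot be set against -0.50. Genes above 0 in at least 50% of a population had a median of -1.05. Irf8 was found in 76.1% of GMP cells at a floor of 10 TPM and in 42.2% and 40% of CD11b+ GMP-P cells at floors of 1 and 10 TPM, in place of 89.1% and 66.7% above 0. Of GMP cells with Irf8, 74.3% held another member at 10 TPM in place of 95.1%, and of CD11b+ GMP-P cells with Irf8, 100% did so at a floor of 1 TPM, in the shared range and with Elane at 10 or more, in place of 86.7%. The mean number of members per GMP cell was 2 at 10 TPM, and 2 of the 5 genes most like Irf8 stayed in the shared range. The causes were not tested. TPM keeps no depth, so a 0 can be a transcript that was missed. No paired analysis was possible because the populations share no cell numbers and no animal is named.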
